A study of Rattus norvegicus with 12 samples.

Results

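The glucose response of control INS-1 cells was described from 6 of the 12 RNA-seq libraries of the series. INS-1 832/13 is a glucose-responsive rat insulinoma line that secretes insulin. All 6 libraries came from cells transduced with an adenovirus that expresses GFP, the control for the ChREBPbeta virus, and held for 48 h in 2 mM glucose (GFP 2 mM, libraries a, b and c) or 11 mM glucose (GFP 11 mM, libraries a, b and c). The members were chosen by these labels, not by any measured value. The other 6 libraries are of cells with the ChREBPbeta virus at the same 2 concentrations. They enter the filter on low counts, the scaling of the libraries, the common estimate of the spread and 1 comparison. The model is 1 tumour cell line that carries an adenovirus in every group, and there was no group without virus. There was also no group from before the 48 h, so a rise at 11 mM cannot be told apart from a fall at 2 mM. Rise and fall here mean higher or lower at 11 mM than at 2 mM. The study's text speaks of independent experiments for its heat maps of these data, but the labels do not tie the libraries of a group to separate cultures, so p-values measure the spread between these libraries.

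In beta cells glucose enters through a transporter, is phosphorylated and oxidised, and the ATP made closes potassium channels and starts insulin release. Over hours to days glucose also changes transcription. ChREBP (gene Mlxipl) and MondoA are glucose-sensing transcription factors that bind paired E-boxes, named carbohydrate response elements, together with Mlx, and Txnip, an inhibitor of glucose uptake and of thioredoxin, is their best-known target. Long exposure to high glucose is known to alter the genes that give beta cells their identity.

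The 6 libraries held 25754488 to 46654823 counts, and the mean total was 1.43 times as high at 11 mM as at 2 mM, so depth moved with glucose. After all libraries were reduced to the smallest total, 2844 genes were called in place of 2962, and 2667 were called in both. Levels are given as CPM, read counts brought to a common library size with TMM factors, which carry no correction for length and are compared only between groups for the same gene. Of the 9 defining beta-cell markers, 8 passed the filter on low counts, and the 9 together summed to 15100 to 16900 CPM in the 2 mM libraries and 11500 to 12500 CPM in the 11 mM libraries. Glucagon (Gcg), an alpha-cell hormone, was present at 1589, 1666 and 1616 CPM at 2 mM and 1719, 1605 and 1647 CPM at 11 mM. Summed markers of delta, PP, ductal, fibroblast and macrophage cells were at most 1.61 CPM in every GFP library, and endothelial markers at most 3.09 CPM. Acinar markers summed to 48.8 to 56.5 CPM at 2 mM and 43 to 45.6 CPM at 11 mM, with Prss1, Ptf1a and Pnlip at 0.

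A gene was called when its adjusted p in edgeR's quasi-likelihood test was under 0.05 and it changed at least 1.2-fold. Glucose changed 2962 of 14669 tested genes. Of these, 1491 were called higher at 11 mM, 10.2% of the genes tested, and 1471 were called lower, 10.0% of the genes tested. The changes were mostly modest, since 183 of the higher and 110 of the lower genes changed at least 2-fold. The 11 mM libraries lay wholly above the 2 mM libraries for 21.8% of tested genes and wholly below them for 20.3%. The median log2 fold change over all tested genes was -0.0024. An unadjusted p under 0.05 in edgeR's test, in either direction, was reached by 6295 of the 14669 tested genes. That number counts both directions together, while list counts at an unadjusted p are given by direction. The number over all tested genes in 1 direction is smaller and was not counted. These shares, this count and this median are the background for every group of genes described here.

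Txnip rose more than any other gene named by the rule. It measured 26.8, 24.3 and 27.7 CPM in the 3 GFP 2 mM libraries and 334.5, 347.2 and 370.3 CPM in the 3 GFP 11 mM libraries. The groups were far apart, and the change was 13.4-fold (log2 fold change 3.74, SE 0.054, edgeR adjusted p = 3.3e-20). Cilp2, which encodes an extracellular matrix protein, rose from 4.15, 3.96 and 3.65 CPM to 29.4, 29.0 and 34.9 CPM, 7.95-fold. Cpne9, a copine of the calcium-dependent phospholipid-binding family, rose from 2.83, 2.42 and 2.95 CPM to 19.2, 18.5 and 21.6 CPM, 7.27-fold. Neither gene had a 2 mM library near its 11 mM libraries.

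The other 12 of the 15 largest rises lay between 2.79-fold and 4.15-fold. Among them were signalling genes. Fzd1, a Wnt receptor, rose 3.74-fold from a mean of 2.74 ± 0.658 to 10.4 ± 1.15 CPM (SD, n = 3 per group, as in all values written with ±). Il17rb, a receptor subunit for interleukin 17 family cytokines, rose 3.35-fold from 7.05 ± 0.0705 to 23.6 ± 2.29 CPM. Hbegf, a growth factor that binds the EGF receptor, measured 17.6, 18.2 and 18.8 CPM at 2 mM and 53.3, 51.4 and 57.6 CPM at 11 mM. Every 11 mM library of Hbegf was above every 2 mM library. Metabolic and transport genes were G0s2, an inhibitor of the triglyceride lipase ATGL (3.02-fold), Slc9b2, a sodium/proton exchanger (3.09-fold), and Slc16a1, the monocarboxylate transporter MCT1 that is normally kept low in beta cells (2.79-fold). Slc16a1 measured 4.56, 5.77 and 5.16 CPM at 2 mM and 15.2, 14.1 and 14.2 CPM at 11 mM. Egln3, a prolyl hydroxylase that marks HIF alpha subunits for degradation, rose 3.07-fold from 6.90 ± 0.446 to 21.1 ± 0.374 CPM. The remaining genes were Gas7, Kcnab3, Hspa12a, Plcxd3 and Fyb.

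The largest falls were smaller in size. Uap1l1 measured 39.9, 39.7 and 42.9 CPM at 2 mM and 14.4, 12.3 and 12.3 CPM at 11 mM, a log2 fold change of -1.65 (SE 0.1, edgeR adjusted p = 2.9e-10). Insrr, an orphan member of the insulin receptor family, went from 13.3 ± 1.87 to 5.49 ± 0.56 CPM, a log2 fold change of -1.28. Both genes had groups that did not overlap. Crhr1, the receptor for corticotropin-releasing hormone, fell from 35.4 ± 0.0989 to 16.1 ± 1.48 CPM. Enpp2, the secreted enzyme autotaxin that makes lysophosphatidic acid, measured 119.2, 124.0 and 120.6 CPM at 2 mM and 56.0, 57.6 and 56.5 CPM at 11 mM. Mertk, a receptor tyrosine kinase for the clearance of dying cells, fell from 33.0 ± 2.92 to 16.2 ± 0.655 CPM. The others described here were Eml2, Cntn3, C1r, Mcoln3, Col27a1, Tspoap1, Ttc38, Lynx1 and Crebrf, with log2 fold changes from -1.22 to -0.94.

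**Figure D1:**
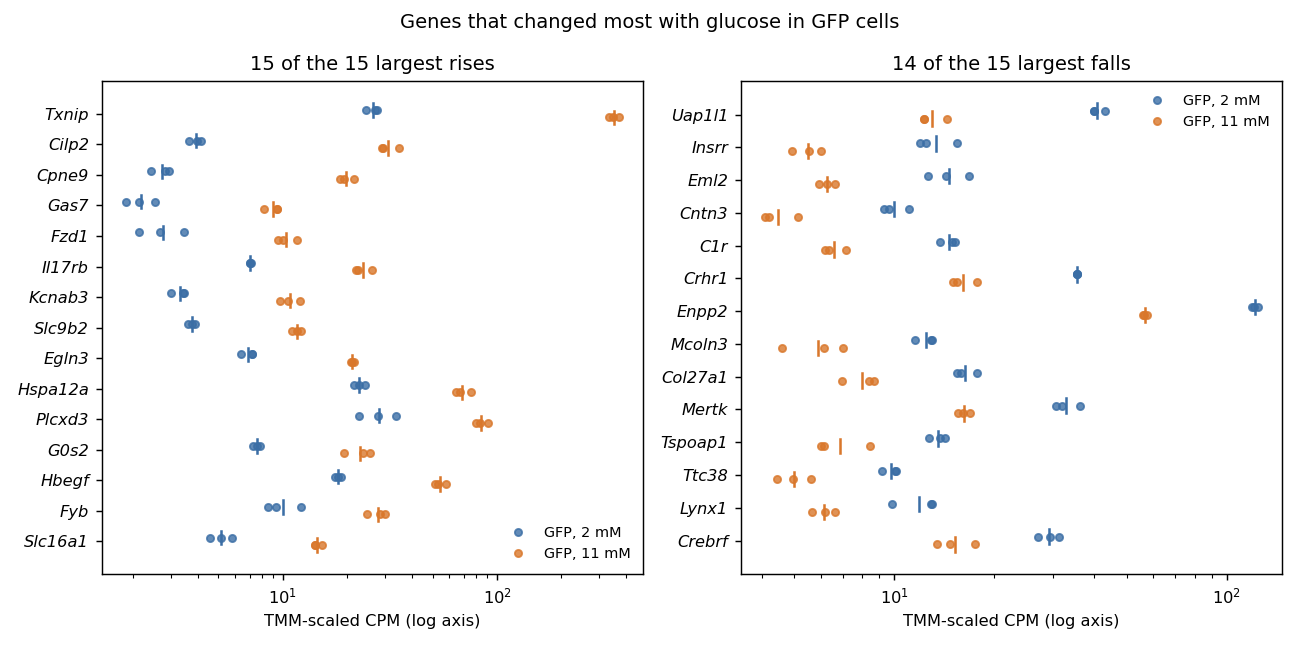
Level of the 15 largest rises (left) and 14 of the 15 largest falls (right) in each GFP library, as TMM-scaled CPM on a log axis, with 2 mM in blue, 11 mM in orange and a vertical line at each group mean. Txnip moved from 24.3 to 27.7 CPM at 2 mM to 334.5 to 370.3 CPM at 11 mM, and no gene shown had groups that overlapped, which the rule for these genes required.

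Among targets of ChREBP and MondoA, 9 of 17 tested genes were called higher, 1 was called lower and 7 were not called. The list had 20 members, and the median log2 fold change of those tested was 0.39. Besides Txnip the called genes included Ppp1r3c, a glycogen-targeting subunit of protein phosphatase 1, which rose from 0.968 ± 0.117 to 4.27 ± 0.437 CPM. Bhlhe40, an E-box-binding repressor of the clock, rose 2.56-fold from 30.0, 28.1 and 32.9 CPM to 78.2, 75.6 and 79.2 CPM. Gpd1, the cytosolic glycerol-3-phosphate dehydrogenase, rose 1.93-fold from 312.6 ± 15.7 to 603.3 ± 41.7 CPM. Rgs16, which speeds the switching off of G proteins, rose 1.79-fold, and Pklr, the pyruvate kinase gene of liver and beta cells, rose 1.63-fold from 129.5 ± 3.46 to 211.0 ± 15.6 CPM. The list also holds entries for regulators, and none of the 3 described here was called higher. Mlxipl measured 240.3, 251.8 and 277.0 CPM at 2 mM and 201.8, 212.4 and 207.5 CPM at 11 mM, a called log2 fold change of -0.31 that was -0.25 and no longer called without GFP 2 mM library c. Its partner Mlx was at 174.3 ± 9.32 and 161.9 ± 4.0 CPM and was not called. A separate entry for the beta isoform, whose counted sequence is not stated, was at 77.8 ± 4.53 and 68.0 ± 4.63 CPM, with groups that overlapped. That entry is not read here as a level of the isoform, since the sequence it counts is unknown. It was at 90.1 ± 0.504 CPM in cells with the ChREBPbeta virus at 2 mM, and whether it counts RNA from the virus was not tested.

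Of the 9 called targets, 6 had a promoter in the RefSeq table (GRCr8, 250 bases before to 50 after the gene's start), and 3 of those held a paired E-box with up to 2 mismatches. The motif searched was CACGTG, any 5 bases and CACGTG again, which reads the same on both strands, and up to 2 mismatches were allowed over its 12 defined positions. Of all 27457 promoters in the table, 0.976% held such a match. The target list was made of genes already tied to ChREBP or MondoA, so the 3 of 6 is a description and no test. Of the 150 genes reported here with a promoter, 7 held one, and the 4 that are not on the target list were Hes1, C1qbp and Kif11, called higher, and Mcm2, not called. The promoters shown are those of the 3 called targets that held a match, with the match in capitals. They lie at chr4:143174200-143174499 (Bhlhe40, 1 mismatch), chr13:68437870-68438169 (Rgs16, 2 mismatches) and chr2:176841014-176841313 (Pklr, 2 mismatches), all on the plus strand.
Bhlhe40: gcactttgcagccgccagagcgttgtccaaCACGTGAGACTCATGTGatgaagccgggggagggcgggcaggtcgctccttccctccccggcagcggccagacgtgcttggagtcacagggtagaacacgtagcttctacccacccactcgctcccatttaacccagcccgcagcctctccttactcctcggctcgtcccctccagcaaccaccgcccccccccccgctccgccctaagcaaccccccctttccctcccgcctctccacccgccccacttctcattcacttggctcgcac
Rgs16: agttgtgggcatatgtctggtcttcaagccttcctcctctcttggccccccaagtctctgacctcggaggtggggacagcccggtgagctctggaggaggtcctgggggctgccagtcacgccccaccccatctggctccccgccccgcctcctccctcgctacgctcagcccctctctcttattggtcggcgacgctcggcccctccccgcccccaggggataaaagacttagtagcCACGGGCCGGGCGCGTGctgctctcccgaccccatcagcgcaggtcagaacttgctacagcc
Pklr: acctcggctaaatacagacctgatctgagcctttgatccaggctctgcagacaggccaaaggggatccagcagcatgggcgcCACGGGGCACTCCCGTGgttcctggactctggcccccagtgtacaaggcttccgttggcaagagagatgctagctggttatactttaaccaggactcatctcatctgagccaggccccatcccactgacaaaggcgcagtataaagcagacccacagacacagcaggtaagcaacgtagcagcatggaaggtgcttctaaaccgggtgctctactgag
A match is a description of these letters and not a measured binding site.

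In glucose uptake and glycolysis 24 of 27 members passed the filter, 14 were called higher, 1 lower and 9 were not called, and the median was 0.38 (log2 fold change). Pkm, a pyruvate kinase, measured 626.1, 677.3 and 684.2 CPM at 2 mM and 1158, 1086 and 1175 CPM at 11 mM, 1.72-fold higher. Pfkfb3, which makes the phosphofructokinase activator fructose 2,6-bisphosphate, rose 2.44-fold from 20.2 ± 1.52 to 49.4 ± 1.58 CPM. Its relative Pfkfb2 was called lower at 0.82-fold, but without GFP 11 mM library a its log2 fold change went from -0.29 to -0.25 and the call was lost. Slc2a3 was among the 14 but lay under 0.5 CPM in every GFP library, and leaving out GFP 2 mM library a ended its call (log2 fold change 1.01). Without other GFP libraries Slc2a3 was also not called: 2 mM c gave 1.41, 11 mM a 1.36, 11 mM b 1.42 and 11 mM c 1.47. Slc2a2, the glucose transporter GLUT2, was at 437.4 ± 13.8 and 489.2 ± 16.1 CPM, 1.12-fold and under the minimum fold.

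Downstream, Pdhb and Pdk1 were among 5 of 32 tested genes of pyruvate and the TCA cycle that were called higher, with 1 called lower, and 17 were higher at an unadjusted p under 0.05. The count called higher rested on single libraries and on the scaling, at 9 without GFP 2 mM library b and 3 with upper quartile factors or library totals. The 1 called lower was lost without GFP 11 mM library c. Pdhb, a subunit of pyruvate dehydrogenase, rose 1.60-fold from 91.5 ± 2.37 to 146.6 ± 2.61 CPM. None of 37 tested nuclear genes of the respiratory chain was called by edgeR or DESeq2, while 17 were higher and 1 lower at an unadjusted p under 0.05, and the median of the list was 0.09 (log2 fold change). Without GFP 11 mM library b, 1 was called higher. In lipid synthesis 2 of 19 tested genes were called higher, near the 10.2% of all tested genes. Without GFP 2 mM library c, 4 were called higher. Acaca, the acetyl-CoA carboxylase that makes malonyl-CoA, rose 1.65-fold from 109.0, 94.4 and 106.0 CPM to 154.5, 182.8 and 173.3 CPM. Acly and Fasn changed 1.19-fold and 1.15-fold and were not called, although both were called without that library (log2 fold changes 0.27 and 0.29). None of 19 tested genes of fatty acid oxidation was called by edgeR, DESeq2 called 1 lower, and 5 were higher and 6 lower at an unadjusted p under 0.05. Leaving out a library gave at most 1 higher (without GFP 2 mM library c or GFP 11 mM library a) and at most 2 lower (without GFP 2 mM library a).

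Myc, the transcription factor that drives ribosome production and cell growth, measured 37.0, 38.9 and 42.0 CPM at 2 mM and 87.7, 90.2 and 95.2 CPM at 11 mM, 2.31-fold higher (edgeR adjusted p = 1.5e-12). In ribosome biogenesis 33 of 34 members passed the filter, 30 were called higher and none lower by edgeR or DESeq2, with 0 lower at an unadjusted p under 0.05. The median was 0.45 (log2 fold change), the highest of the 27 lists, and 32 genes had groups that did not overlap. Polr1b, a subunit of RNA polymerase I, rose 1.56-fold from 29.8 ± 1.35 to 46.4 ± 2.17 CPM. Rrs1, Rrp12 and Nop2, which process ribosomal RNA or assemble the large or small subunit, rose 1.539-fold, 1.498-fold and 1.489-fold. In the Myc network and nucleotide synthesis 12 of 28 tested genes were called higher and 2 lower. Cad, which begins pyrimidine synthesis, rose 1.65-fold and Odc1, which begins polyamine synthesis, rose 1.58-fold. Srm, the next polyamine enzyme, was at 5.77, 6.00 and 1.35 CPM at 2 mM and 10.7, 11.2 and 9.81 CPM at 11 mM. Library c of GFP 2 mM stood low for Srm, whose log2 fold change was 1.27 with it and 0.84 without it. Mxd1, a repressor that competes with Myc for Max, fell from 9.63 ± 0.324 to 6.18 ± 0.693 CPM.

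In DNA replication 17 of 39 tested genes were called higher, 22 were not called and none was called lower by edgeR or DESeq2, with 1 lower at an unadjusted p under 0.05 and a median of 0.25 (log2 fold change). Rrm2, a subunit of ribonucleotide reductase, rose 1.53-fold from 91.0, 84.0 and 76.7 CPM to 128.8, 120.6 and 134.6 CPM, and Orc1, of the origin recognition complex, rose 1.497-fold. Mcm2 and Pcna were at 0.976-fold and 1.11-fold and were not called. In mitosis 18 of 33 tested genes were called higher, 15 were not called and none was called lower by edgeR or DESeq2, with 0 lower at an unadjusted p under 0.05 and a median of 0.28. Ccnb1, cyclin B1, rose 1.32-fold from 157.5 ± 6.35 to 207.9 ± 9.36 CPM, and Top2a, topoisomerase II alpha, rose 1.28-fold. Mki67 had overlapping groups of 363.0, 286.6 and 389.6 CPM and 354.5, 468.6 and 368.5 CPM, and passed the call only without GFP 2 mM library c (log2 fold change 0.29). Both lists depend on the scaling, since 14 genes of each were called higher when libraries were scaled by their totals alone. Among p53 targets 7 of 20 tested genes were called higher and 1 lower, the latter lost without GFP 2 mM library c or GFP 11 mM library a. Cdkn1a, the cyclin-dependent kinase inhibitor p21, rose 1.39-fold from 49.2, 49.5 and 50.2 CPM to 70.5, 65.5 and 71.4 CPM.

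**Figure D2:**
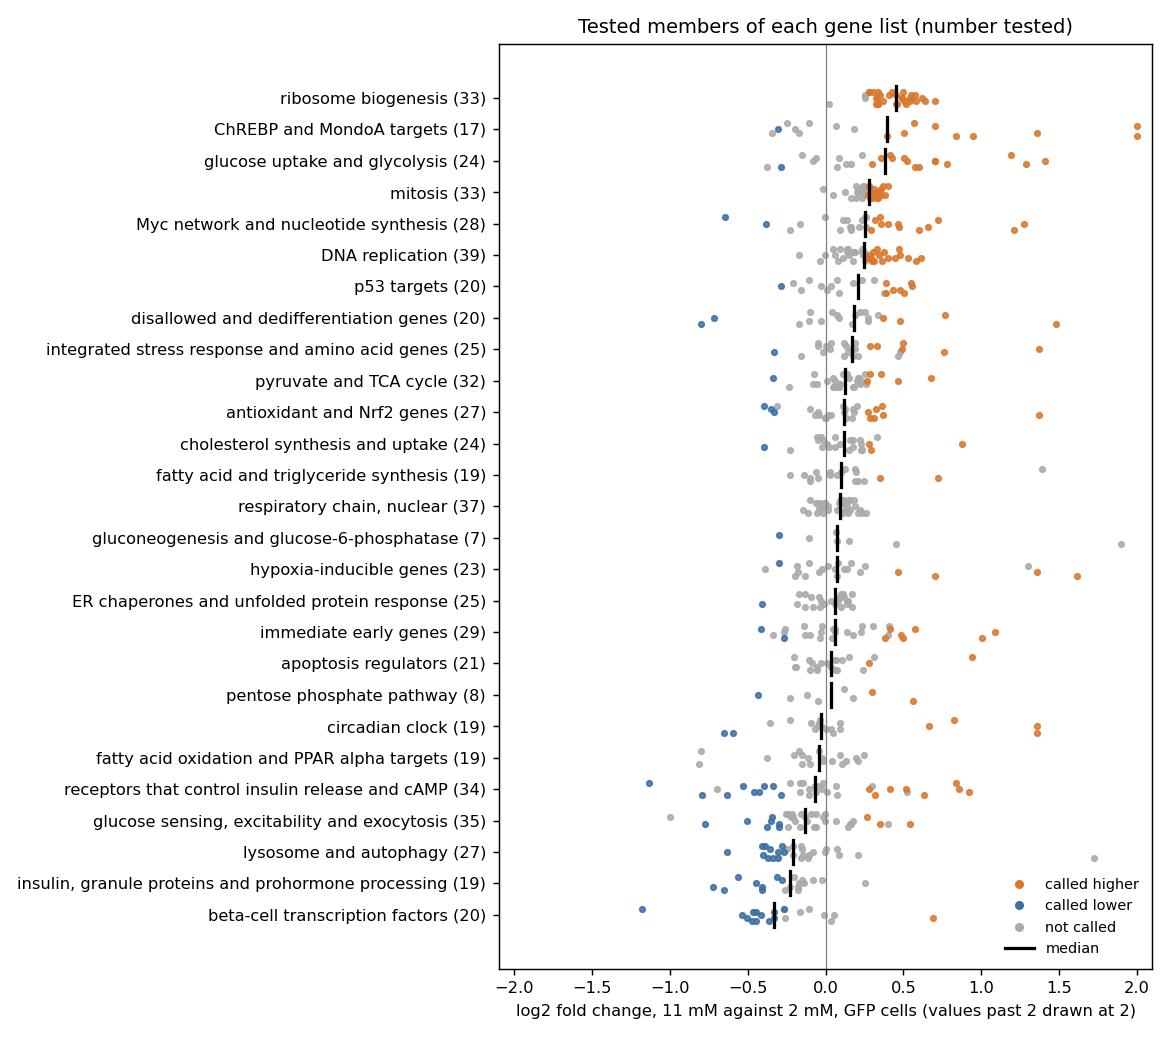
Log2 fold change of each tested member of 27 gene lists at 11 mM against 2 mM glucose in GFP cells, with called genes in orange (higher) or blue (lower), genes not called in grey, the list's median as a black bar and values past 2 drawn at 2. Ribosome biogenesis had the highest median (0.45, 30 of 33 called higher) and beta-cell transcription factors the lowest (-0.33, 12 of 20 called lower).

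Among beta-cell transcription factors 20 of 21 members passed the filter, 12 were called lower, 1 higher and 7 were not called, and the median was -0.33 (log2 fold change). The called genes included Nkx6-1, at 93.1, 90.5 and 102.5 CPM at 2 mM and 65.2, 67.1 and 65.3 CPM at 11 mM, a log2 fold change of -0.53. Mafa, an activator of the insulin genes, measured 96.9, 102.0 and 107.9 CPM at 2 mM and 73.2, 68.2 and 75.0 CPM at 11 mM, a log2 fold change of -0.50. The groups did not overlap for either gene. Isl1, Nkx2-2 and Mnx1, homeobox factors of endocrine development, had log2 fold changes of -0.47, -0.47 and -0.45. Foxa2 and Rfx6 were not called, with 108.7 ± 9.03 and 111.4 ± 5.35 CPM for Foxa2 and 134.4 ± 2.25 and 133.6 ± 8.68 CPM for Rfx6.

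All 19 insulin and granule genes passed the filter, 8 were called lower, 11 were not called and none was called higher by edgeR or DESeq2, 1 gene was higher at an unadjusted p under 0.05, and the median of the list was -0.23. Without GFP 11 mM library b, 1 was called higher. Ins1 measured 10820, 11550 and 12660 CPM at 2 mM and 9180, 8114 and 9061 CPM at 11 mM, a log2 fold change of -0.41. Ins2 measured 66.1, 70.9 and 79.7 CPM and 45.1, 38.5 and 47.7 CPM, a log2 fold change of -0.72. Both insulin genes were lower in every 11 mM library, but they are near-identical and their split is uncertain. Scg2, a granin, went from 825.7 ± 7.34 to 526.4 ± 4.78 CPM, and Pcsk2, a prohormone convertase, from 2322 ± 93.9 to 1573 ± 22.4 CPM. Iapp, which encodes amylin, and Slc30a8, the granule zinc transporter, had log2 fold changes of -0.45 and -0.41. Chromogranin A (Chga) was at 9349 ± 523.0 and 8422 ± 433.0 CPM and was not called at a log2 fold change of -0.15.

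Secretion and receptor genes were mixed. In glucose sensing, excitability and exocytosis 7 of 35 tested genes were called lower and 3 higher. Kcnj11 and Abcc8, the subunits of the ATP-sensitive potassium channel, had log2 fold changes of -0.35 each, from 443.8 ± 11.7 to 347.4 ± 8.24 CPM for Kcnj11. Rab27a, a GTPase of granule docking, fell from 23.1, 26.1 and 21.8 CPM to 14.6, 14.3 and 12.8 CPM. Syt4 rose 1.46-fold. Of 34 tested receptors and cAMP genes, 9 were called lower and 8 higher. The incretin receptors fell, Glp1r from 62.57, 60.52 and 62.33 CPM to 38.2, 40.9 and 40.8 CPM and Gipr from 132.8 ± 8.56 to 96.6 ± 1.02 CPM. Gpr119, a lipid receptor that raises cAMP, had a log2 fold change of -0.53. The glucagon receptor (Gcgr) went the opposite way, from 70.3, 75.0 and 77.5 CPM to 135.6, 126.9 and 140.3 CPM, 1.81-fold higher. Lysosome and autophagy genes were lower in 11 of 27 tested members and higher in none by edgeR or DESeq2, with 2 higher at an unadjusted p under 0.05 and 1 called higher without ChREBPbeta 2 mM library b. Neu1, the lysosomal sialidase, fell from 53.9 ± 1.71 to 34.7 ± 1.75 CPM.

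**Figure D3:**
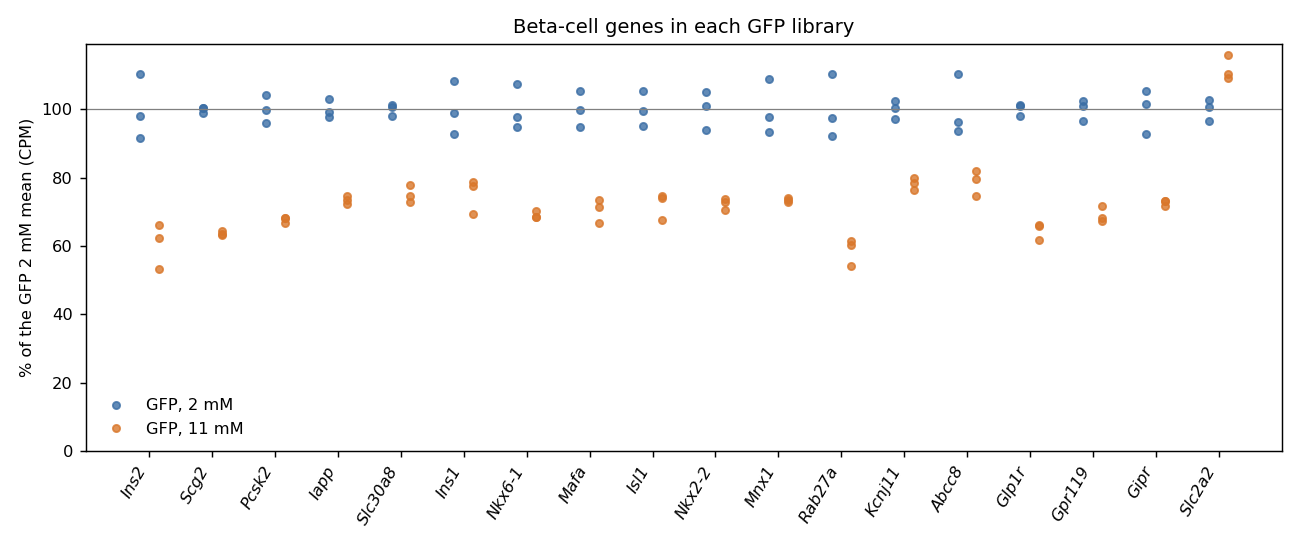
Level of beta-cell genes in each GFP library as a percentage of the gene's GFP 2 mM mean, with 2 mM in blue and 11 mM in orange. The 11 mM libraries lay below the 2 mM libraries for every gene shown except Slc2a2, which was not called at 1.12-fold. The genes are a selection from the lists, and no gene called higher is shown. The lists held 1 transcription factor, 3 genes of excitability and exocytosis and 8 receptor and cAMP genes that were called higher. Of the insulin and granule genes, 11 of 19 were not called.

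Of 25 tested genes of ER chaperones and the unfolded protein response, none was called higher by edgeR or DESeq2 and 1 was called lower, while 9 were higher at an unadjusted p under 0.05. Hspa5, the chaperone BiP, was at 1388 ± 39.2 and 1485 ± 37.1 CPM, and Ddit3, which encodes CHOP, at 18.4 ± 0.706 and 18.8 ± 0.228 CPM, and neither was called. In amino acid and integrated stress response genes 6 of 25 were called higher and 1 lower. Psat1, of serine synthesis, rose 1.70-fold from 83.6, 84.7 and 80.0 CPM to 141.6, 140.0 and 140.0 CPM. In the clock, Dbp fell from 75.5 ± 3.81 to 48.0 ± 4.53 CPM, with 4 of 19 tested genes called higher and 2 lower. Of the remaining lists, disallowed and dedifferentiation genes had 4 of 20 higher and 2 lower, immediate early genes 7 of 29 and 2, hypoxia-inducible genes 4 of 23 and 1, antioxidant genes 7 of 27 and 3, and cholesterol genes 3 of 24 and 1. Apoptosis regulators had 2 of 21 higher, the pentose phosphate pathway 2 of 8 higher and 1 lower, and gluconeogenesis 1 of 7 lower. Over all tested genes 10.2% were called higher and 10.0% lower. The counts called higher for cholesterol genes and apoptosis regulators lay near that 10.2%. Several of the small counts of these lists rested on 1 library. Apoptosis regulators had 1 higher and 1 lower without GFP 2 mM library a and 4 higher without GFP 11 mM library b. The pentose phosphate pathway had 1 higher without GFP 2 mM library c or GFP 11 mM library c. Gluconeogenesis had none lower without GFP 2 mM library c or GFP 11 mM library b, and 1 higher without the latter. Immediate early genes had 1 lower without GFP 2 mM libraries b or c or GFP 11 mM libraries b or c, and cholesterol genes 2 lower without GFP 2 mM libraries a or b. With library totals, 1 cholesterol gene and 1 apoptosis regulator were called higher.

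The same change of glucose was compared between GFP cells and ChREBPbeta cells by edgeR's test of the interaction, and 925 genes had a different effect, 6.31% of those tested. In ChREBPbeta cells 0.988% of tested genes were called higher at 11 mM and 2.88% lower. The glucose effects in the 2 kinds of cell share no libraries. Of the 1491 genes that rose in GFP cells, 90 were called higher in ChREBPbeta cells, which is 6.04% of the GFP genes and 62.1% of the 145 ChREBPbeta genes. Of the 1471 that fell, 335 were called lower in ChREBPbeta cells, 22.8% of the GFP genes and 79.4% of the 422. The largest rises and falls were selected from the GFP libraries that this comparison also uses, so their values are a description. In ChREBPbeta cells at 2 mM the mean was above the GFP 11 mM mean for each of the 15 rises. For 14 of them every ChREBPbeta 2 mM library was above every GFP 11 mM library. The same was not counted over all tested genes, so it is not known to be particular to the rises. Txnip measured 449.9, 471.7 and 448.4 CPM in the ChREBPbeta 2 mM libraries, above its 11 mM levels in GFP cells, and its log2 fold change was 3.74 in GFP cells and 0.54 in ChREBPbeta cells. Cilp2 was at 143.9 ± 8.60 CPM in ChREBPbeta cells at 2 mM, and its log2 fold changes were 2.99 and -0.01. G0s2 was at 159.4 ± 5.88 CPM there. Among the falls, Eml2 had -1.22 in GFP cells and -0.50 in ChREBPbeta cells, Uap1l1 -1.65 and -1.49, and Mertk -1.03 and -1.24. Among the lists, the effect differed for 22 of 33 ribosome biogenesis genes and 18 of 39 DNA replication genes, and for 2 of 19 granule genes and 6 of 20 beta-cell transcription factors.

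**Figure D4:**
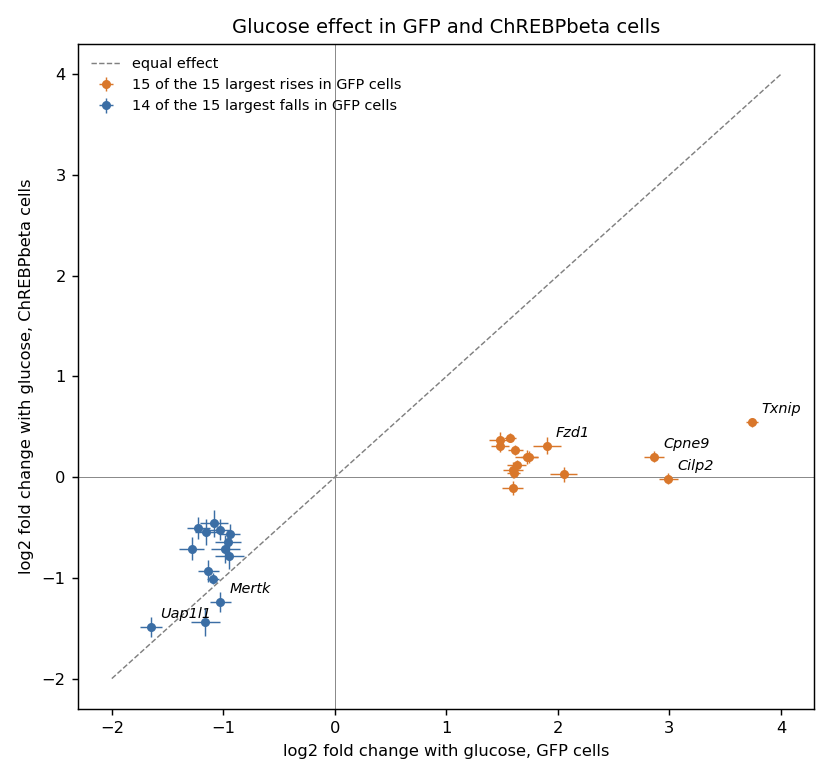
Log2 fold change with glucose in GFP cells (horizontal) and in ChREBPbeta cells (vertical) for the 15 largest rises (orange) and 14 of the 15 largest falls (blue) in GFP cells, with bars of 1 standard error and a dashed line at equal effects. The genes were chosen for their change in GFP cells. Txnip lies at 3.74 and 0.54 and Uap1l1 at -1.65 and -1.49.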

How the data were processed

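RNA of INS-1 832/13 cells was sent to Genewiz, a sequencing provider, and amplified with the NuGEN Ovation RNA-Seq System V2 before sequencing. Rnor_6.0 and edgeR are named in the submitters' processing notes, and the aligner and counter are not given in the sources used here. The authors deposited raw read counts per gene for 12 libraries, and 4 columns of group means of these counts, recorded as the unit score. The deposited means equalled the means of the counts in all 28728 rows and were not used further. The entry without a gene name (0.0043% to 0.00601% of counts) was left out, and 26 names turned into dates were kept out of the named genes.

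Genes passing filterByExpr (14669) were fitted in edgeR 4.0.16 (R 4.3.3) on all 12 libraries with TMM factors, a group term and the quasi-likelihood test, 8 residual degrees of freedom, Benjamini-Hochberg adjustment, and calls at adjusted p under 0.05 and 1.2-fold. The scripts were tested on simulated data. DESeq2 1.42.0 and other settings were alternatives. Libraries of a group differed by more than sampling noise. Counting error is small at 25754488 or more counts per GFP library, except for genes near 1 CPM.

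The named genes were the 15 largest rises and 15 largest falls among called genes with a symbol, a mean of at least 5 CPM and groups that do not overlap, up to 6 called members each way of each list, and members at key steps. Some genes that these rules select are not reported here and were not replaced, though list counts include them. Members and lists were chosen with earlier results of these data known, and the genes at key steps were picked after their values were seen. Lists are described by counts and medians, with no test of the list. Promoters matched by symbol for 69.1% of the genes called higher and 71.6% of those called lower, under 80%. No share with the motif over all called genes is therefore given.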

Additional observations from a re-analysis of the deposited data

Results flagged for a closer look

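Among the 194 genes reported under the rules, 75 had a glucose effect that differed between GFP and ChREBPbeta cells by edgeR's interaction test with Benjamini-Hochberg adjustment. The values are the log2 fold change in GFP cells minus that in ChREBPbeta cells. Most of these genes were chosen for a large change in GFP cells, and the interaction uses the same GFP libraries, so the sizes are descriptions.

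The effect was more positive in GFP cells for 59 genes. The difference was 3.20 for Txnip, 3.01 for Cilp2, 2.66 for Cpne9, 2.03 for Gas7, 1.86 for Ppp1r3c, 1.70 for G0s2, 1.59 for Fzd1, 1.56 for Hspa12a, 1.55 for Il17rb, 1.52 for Plcxd3, 1.52 for Kcnab3, 1.51 for Slc9b2, 1.35 for Egln3, 1.32 for Srm, 1.27 for Bhlhe40, 1.18 for Hbegf, 1.17 for Slc16a1, 1.12 for Ciart, 1.12 for Fyb, 1.06 for Id2, 1.05 for Myc and 1.00 for Pfkfb3. It was 0.85 for Bmf, 0.83 for Gcgr, 0.69 for Rgs16, 0.65 for Hlf, 0.65 for Hes1, 0.65 for Polr1b, 0.63 for Cad, 0.61 for Pde4b, 0.61 for Pklr, 0.58 for Acaca, 0.56 for Pkm, 0.55 for Gpd1, 0.55 for Orc1, 0.53 for Ptger3, 0.53 for Psat1, 0.51 for Gins1, 0.51 for Pdhb, 0.48 for Nop2, 0.47 for Psph and 0.45 for Rrs1. It was 0.44 for Impdh2, 0.44 for Odc1, 0.44 for Mcm10, 0.40 for C1qbp, 0.39 for Rrp12, 0.37 for Rrm2, 0.37 for Slc7a1, 0.37 for Polr1e, 0.36 for Hmgcs1, 0.36 for Gins4, 0.35 for Pdk1, 0.34 for Gadd45a, 0.33 for Tkt, 0.30 for Aen, 0.30 for Rpia, 0.29 for Syt4 and 0.27 for Top2a.

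The effect was more negative in GFP cells for 16 genes. The difference was -0.27 for Nkx2-2, -0.28 for Syt13, -0.31 for Isl1, -0.35 for Vldlr, -0.42 for Rab27a, -0.44 for Dbp, -0.45 for Wipi1, -0.46 for Pdk2, -0.49 for Cpt1a, -0.51 for Col27a1, -0.53 for Per3, -0.57 for Insrr, -0.61 for C1r, -0.63 for Mcoln3, -0.72 for Eml2 and -0.98 for Pdgfra. Cpt1a was not called in GFP cells and was called higher in ChREBPbeta cells.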

How the results depend on the processing

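The count of genes changed by glucose in GFP cells was 2962 (1491 higher, 1471 lower), and the count with a different effect in ChREBPbeta cells was 925. Tested against 1.2-fold, they were 1113 (616 higher, 497 lower) and 194. With no minimum fold change the glucose count was 5029 (2669 higher, 2360 lower), and with a minimum of 2-fold the counts were 293 (183 higher, 110 lower) and 108. Both shrink or grow by construction. Under DESeq2, RLE or upper quartile factors, library totals, a filter of at least 10 counts, no filter and thinning, each count stayed within 1.5 times. Scaling by library totals called 2968 genes, 41.3% of them higher in place of 50.3%. Leaving out 1 library gave 2643 to 2992 genes in all, 1383 to 1539 higher, 1256 to 1464 lower, and 669 to 1078 for the interaction. The GFP libraries alone gave 2748 and cannot give the interaction. No pairing by replicate letter was seen. Deviations of same-letter libraries correlated at -0.0257, -0.0401 and 0.0522, and those of different-letter libraries at -0.0747 to 0.0873. These values cannot tell whether the letters mark matched cultures. A replicate block gave 2938 genes (1491 higher, 1447 lower) and 912, with no call of a named gene lost or gained.

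Genes that changed sign were all uncalled. With library totals Gcg was -0.0028 and Ddit3 -0.0014 (log2). With thinning Rfx6 was 0.0055. Leaving out 1 library turned Foxa2 (-0.0188 to 0.0995 over the libraries), Rfx6 (-0.0615 to 0.0218), Nfe2l2 (-0.0296 to 0.0357), Vegfa (-0.0664 to 0.013) and Nr1d1 (-0.1216 to 0.0486), and the cause was not tested. Depth limits low genes, and 4 of the named genes lost their call with thinning. Apart from depth, 46 of the named genes lost their call when tested against 1.2-fold.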
